A study of Mus musculus with 16 samples.

Results

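Oral CEC was compared with oral buffer in the colonic mucosa of mice with chemically induced colitis. Colitis was induced with dinitrobenzene sulfonic acid (DNBS), a hapten given into the rectum. The comparison rests on 8 of the 16 samples of the series, chosen by their labels: 4 samples from mice given DNBS and oral CEC (numbered 1, 2, 6 and 8) and 4 from mice given DNBS and oral phosphate-buffered saline (PBS), the sick controls (numbered 2, 3, 4 and 5). They are called CEC samples and DNBS samples here. The labels do not spell out CEC, and strain, sex and age of the mice are not given in the sources used here. The other samples are 4 from healthy mice given PBS by mouth and 4 from mice given DNBS and oral Nissle, a probiotic Escherichia coli. They place the values and also enter the fit. The standard errors, p-values and intervals therefore rest on the spread within all 4 groups. For a gene that spread less in healthy or Nissle samples, the standard error can be smaller than the 8 samples alone would give. RNA was read by real-time PCR on a mouse inflammation panel of 648 assays for 584 genes. The series description says that equal amounts of RNA of each mouse were pooled, while each sample has its own number, so a sample may be 1 mouse or a pool, and the p-values measure only the spread between these samples.

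A hapten such as DNBS binds to proteins of the colon wall and sets off an acute inflammation. Damaged epithelium and resident macrophages release interleukin 1 and tumour necrosis factor, and CXC chemokines then draw in neutrophils, which carry calprotectin (S100a8 with S100a9) and lactoferrin (Ltf). CC chemokines bring monocytes and eosinophils, and inducible nitric oxide synthase (Nos2) and haem oxygenase (Hmox1) are made as the lesion develops.

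The level of a gene is given as the mean cycle threshold (Ct) of 13 reference genes less its own Ct. This is a log2 scale on which 1 unit is 1 PCR cycle, about a 2-fold difference, and most levels are negative because most genes amplify later than the reference. A Ct above 28 counted as not detected. Of 568 target genes, 52 were detected in 0 of the 8 samples, and 441 in all 8. Those tested were the 474 with at least 3 detected samples in each group. Each of the 8 samples held 548 to 563 detected assays. How many molecules lie behind a Ct is not known. The epithelial gene Krt8 was detected in every sample, at 3.12 to 4.72 in CEC samples, 2.99 to 4.42 in DNBS samples and 2.85 to 4.55 in healthy samples. It was the only epithelial marker of the marker list read by the panel.

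No gene passed between CEC and DNBS samples. The lowest adjusted p over 474 genes was 0.999 (limma with Benjamini-Hochberg adjustment), so percent called was 0, and 8 genes had an unadjusted p under 0.05. Differences are given throughout as CEC minus DNBS with the standard error (SE) of the limma fit and n = 4 per group unless stated, and none of those between CEC and DNBS passed. CEC samples had the higher mean in 196 genes and the lower mean in 278, with a median difference of −0.09. Among the 41 genes that differed by more than 1 log2 unit, 36 were lower with CEC and 5 higher.

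**Figure D1:**
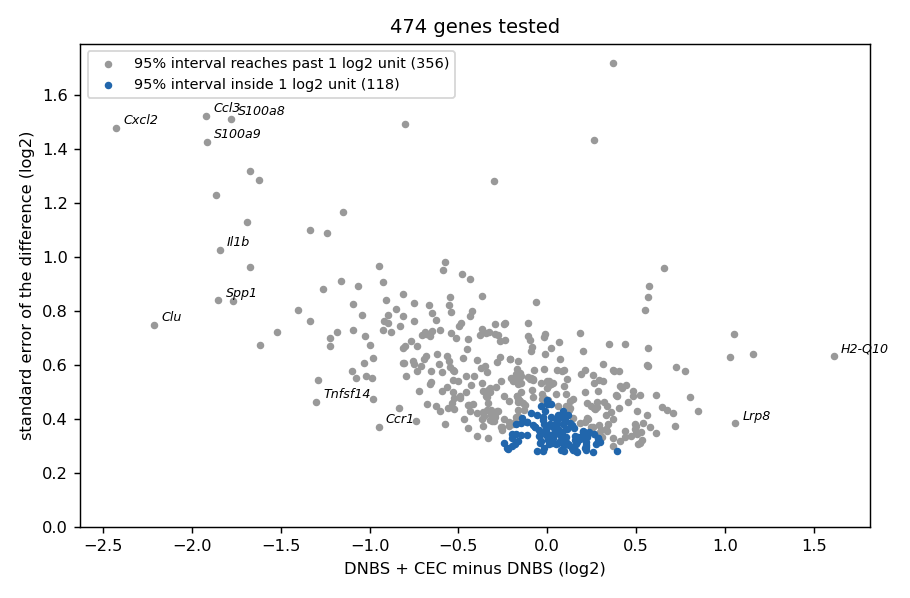
Difference between CEC and DNBS samples (x axis, log2) against its standard error (y axis, log2) for the 474 genes tested, 1 point per gene. The 118 genes in blue have a 95% interval inside 1 log2 unit to either side, and the points with the largest differences also have large standard errors.

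The secreted chaperone clusterin (Clu) had the lowest p. Its level was −1.65, −1.50, −0.32 and −0.02 in CEC samples 1, 2, 6 and 8 and 4.15, −0.17, −0.10 and 1.46 in DNBS samples 2, 3, 4 and 5. DNBS sample 2 lay far above all others, while CEC sample 6 lay just below and CEC sample 8 just above DNBS samples 3 and 4. The difference was −2.21 ± 0.75, or 4.63-fold lower, and −1.27 without DNBS sample 2. The SD of Clu was 0.82 in CEC and 2.02 in DNBS samples, against 0.27 in healthy and 0.76 in Nissle samples.

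Ccr1, a chemokine receptor of neutrophils and monocytes, was at −3.60, −3.61, −3.40 and −4.25 in CEC samples and at −2.76, −2.12, −2.94 and −3.26 in DNBS samples, with healthy samples between −3.99 and −3.39. Every CEC sample lay below every DNBS sample, and 3 of the 4 CEC samples lay within the healthy range, with CEC sample 8 below it. The difference was −0.95 ± 0.37. With single samples left out it ranged from −1.11 to −0.73.

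Such a separation, with every sample of either group above every sample of the other, was found in 3 of 474 genes (percent called 0.633). The other genes were Apoa1, the main protein of high-density lipoprotein, and Scube1, a secreted and membrane-bound platelet and endothelial protein. Apoa1 was at −5.51, −8.65, −5.73 and −6.38 in CEC samples and between −5.50 and −5.21 in DNBS samples. Healthy samples lay above both, at −4.62 to −3.49, so CEC samples were farther from healthy samples than DNBS samples were. CEC sample 1 missed the DNBS range by little, and the difference of −1.18 ± 0.72 came to −0.49 without CEC sample 2. The value of CEC sample 2 in Apoa1 has shortened decimals and may be off by less than 1 cycle. Scube1 was at −4.48, −4.58, −3.90 and −4.36 in CEC samples and between −5.10 and −4.62 in DNBS samples, a difference of 0.53 ± 0.32. Every CEC sample lay above the healthy range of −5.24 to −4.75 in Scube1. Here too the CEC and DNBS groups lay close, with CEC sample 2 and DNBS sample 5 nearly touching. With labels exchanged at random, a gene read in all 8 samples separates in this way with a probability of 0.0286 (exact permutation). The 0.633 percent found is no excess over that. The number of separated genes was higher with any 1 sample left out, as 3 samples separate from 4 more easily. It was 9, 9, 17 and 8 without CEC samples 1, 2, 6 and 8, and 4, 7, 10 and 23 without DNBS samples 2, 3, 4 and 5.

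Lrp8, a receptor for apolipoprotein E and reelin, was the gene with the lowest p among those with a higher mean with CEC. Its level was −3.43, −3.54, −4.98 and −4.83 in CEC samples, −5.59, −4.84, −5.48 and −5.11 in DNBS samples and −5.82 to −5.23 in healthy samples. CEC samples 1 and 2 lay above all others, while CEC samples 6 and 8 lay near DNBS sample 3. The difference was 1.06 ± 0.38. Nissle samples were at −4.66 to −3.73 in Lrp8, and against them CEC samples differed by 0.07 ± 0.38.

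The class I histocompatibility gene H2-Q10 had the largest positive difference, 1.61 ± 0.63. CEC samples were at −4.48, −1.56, −2.68 and −3.90 and DNBS samples at −4.88, −5.33, −3.77 and −5.09. CEC sample 2 was highest, DNBS sample 4 lay within the CEC range, and healthy samples, at −3.74 to −2.63, lay inside the CEC range as well. H2-Q10 has close relatives among the class I genes, and whether the assay reads it alone is not given in the sources used here.

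Tnfsf14 (LIGHT), a tumour necrosis factor ligand of activated T cells and myeloid cells, was at −8.55, −8.06, −7.49 and −8.37 in CEC samples and at −6.17, −5.95, −7.83 and −7.32 in DNBS samples. DNBS samples 2 and 3 lay above all CEC samples, and CEC sample 6 lay between DNBS samples 5 and 4. The difference was −1.30 ± 0.46, and the reading was close to the detection limit in most samples.

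Pla2g4c, a cytosolic phospholipase A2, differed by −1.29 ± 0.55, with DNBS sample 3 not detected, and by −0.52 ± 0.80 with a detection limit of Ct 30. The 4 tested phospholipases had a median of 0.08, whose sign changed under 1 of 5 scalings. Cebpa, a transcription factor of myeloid cells, adipocytes and epithelium, differed by −1.62 ± 0.67, with CEC sample 1 not detected, and by −3.89 ± 2.04 when any Ct under 40 was taken as a reading. CEC sample 6 was low in Cebpa, at −5.22, but this value and that of DNBS sample 2 equal the mean Ct of the other 3 samples of their group and were filled in before deposit. The other values were −2.77 and −2.10 in CEC samples 2 and 8 and −2.25, −1.48 and −1.76 in DNBS samples 3, 4 and 5. Apoe, a lipid carrier of macrophages, was at −0.11, 0.22, 1.33 and 0.82 in CEC samples and 1.76, 1.19, 1.57 and 1.65 in DNBS samples, a difference of −0.98 ± 0.47. In Apoe, CEC samples 1, 2 and 8 lay below all DNBS samples and CEC sample 6 lay above DNBS sample 3. Nissle samples, at −1.51 to 0.81, also lay below all DNBS samples in Apoe.

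**Figure D2:**
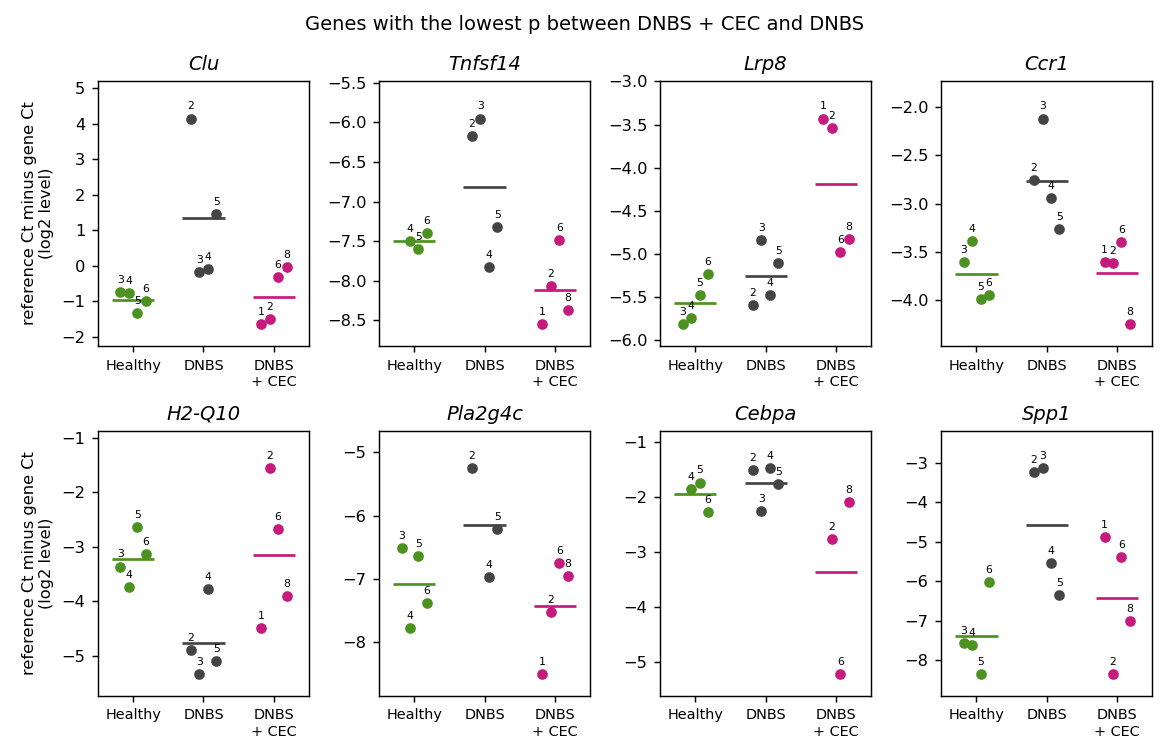
Levels (reference Ct minus gene Ct, log2) of the 8 genes with the lowest unadjusted p, with 1 point per sample labelled by its number and a line at the mean of each group; samples in which a gene was not detected have no point. Only Ccr1 among them has DNBS and CEC samples that do not overlap, and Clu has DNBS sample 2 at 4.15, far from its group.

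Lipoprotein genes as a group (apolipoproteins and lipoprotein receptors) had 5 tested members, of which 4 had a lower mean with CEC and 1 (Lrp8) a higher one, with 0 passing and a median of −1.18 against −0.09 over all genes tested, or −0.68 without CEC sample 2. Besides Clu, Apoe, Apoa1 and Lrp8 the list holds Olr1, the receptor for oxidised lipoprotein on endothelium and macrophages. Olr1 was at −6.44, −8.07 and −7.72 in CEC samples 1, 2 and 6, was not detected in CEC sample 8, and was at −6.12, −3.39, −6.37 and −6.68 in DNBS samples. DNBS sample 3 stood far above the rest, and the difference of −1.77 ± 0.83 was −1.02 without it. When any Ct under 40 was taken as a reading, it was −2.89 ± 1.04.

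The neutrophil genes had wide differences and wide intervals. S100a8 was at 2.01, 2.33, −3.42 and −4.84 in CEC samples 1, 2, 6 and 8, at −0.67, 4.77, −1.63 and 0.74 in DNBS samples 2, 3, 4 and 5, and between −6.95 and −4.07 in healthy samples. CEC samples 1 and 2 lay above 3 of the 4 DNBS samples, CEC sample 8 lay inside the healthy range, CEC sample 6 lay between the healthy and the DNBS samples, and DNBS sample 3 was the highest. The difference was −1.78 ± 1.51, with a 95% interval from −4.98 to 1.42. It was −0.46 without DNBS sample 3, −0.49 without CEC sample 8 and −2.88 without CEC sample 2. The SD of S100a8 was 3.69 in CEC and 2.82 in DNBS samples, against 1.36 in healthy and 0.62 in Nissle samples.

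S100a9, the partner of S100a8, had the same order among CEC samples 6 and 8: they were at −3.03 and −5.36, against 1.61 and 0.47 in CEC samples 1 and 2 and −2.44 to 4.47 in DNBS samples. Ltf was at −3.31, −1.45, −5.98 and −6.40 in CEC samples and −1.0, −1.55, −5.04 and −2.85 in DNBS samples, a difference of −1.67 ± 0.96, or −0.97 without CEC sample 8. CEC samples 6 and 8 were again the lowest of the 8. Chi3l3, a chitinase-like protein of neutrophils and macrophages, was at 0.27, −4.49 and −5.86 in CEC samples 1, 2 and 6 and not detected in CEC sample 8, against −2.81 to 0.78 in DNBS samples. The difference in Chi3l3, −1.87 ± 1.23, was −1.11 without DNBS sample 3 and −3.65 with a detection limit of Ct 30. Of the granule list, 5 of 6 genes on the panel were tested, all 5 had a lower mean with CEC, 0 passed and the median was −1.78. The median was −0.54 without DNBS sample 3 and −2.78 without CEC sample 1.

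**Figure D3:**
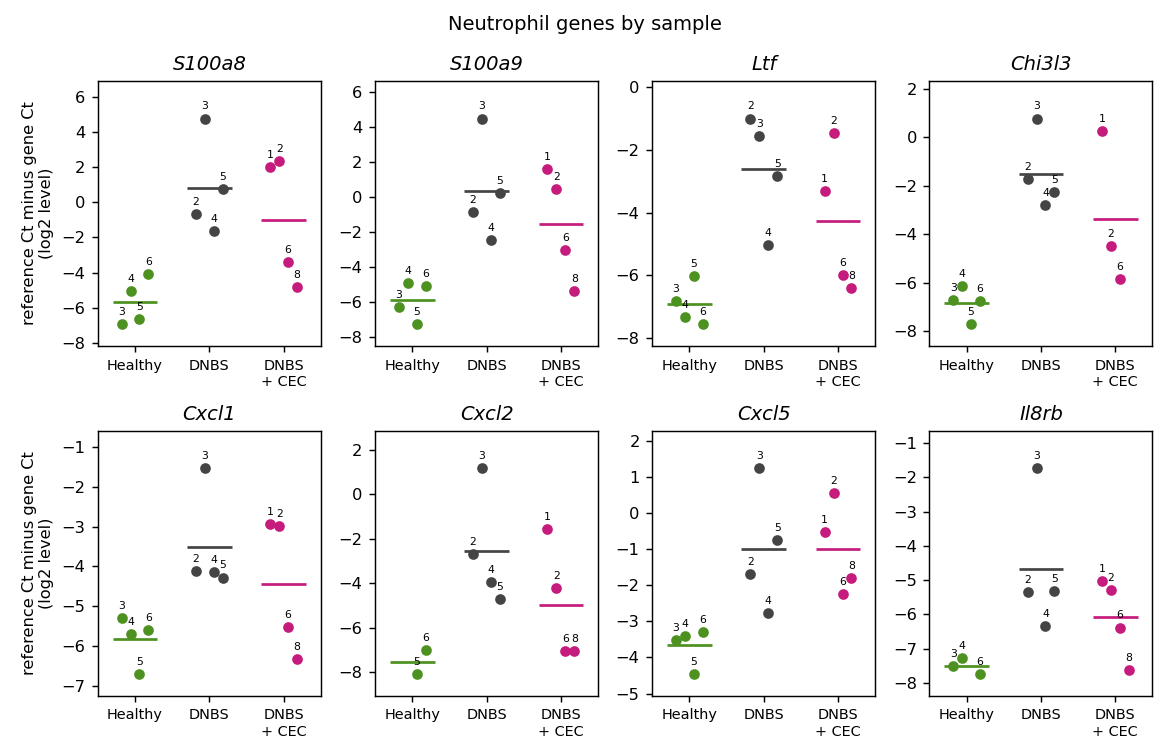
Levels of 8 neutrophil genes (log2, reference Ct minus gene Ct) in healthy, DNBS and CEC samples, each point labelled with the sample number and each line a group mean. In S100a8, S100a9, Ltf, Cxcl1 and Cxcl2 the CEC samples 1 and 2 lie above CEC samples 6 and 8, and DNBS sample 3 is the highest sample in 7 of the 8 panels.

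The neutrophil chemokines Cxcl1, Cxcl2 and Cxcl3 had a like spread. Cxcl2 was at −1.54, −4.19, −7.04 and −7.06 in CEC samples and at −2.68, 1.18, −3.92 and −4.71 in DNBS samples, a difference of −2.43 ± 1.48, or −1.19 without DNBS sample 3. CEC samples 6 and 8 were at the level of the healthy samples in which Cxcl2 was detected (−8.08 and −6.98), and DNBS sample 3 lay far above the others. Cxcl3 differed by −1.62 ± 1.28 and by −0.43 without DNBS sample 3. Cxcl5, an epithelial neutrophil chemokine, had means that differed by −0.01 ± 0.71, and the sign turned when single samples were left out. Its level was −0.52, 0.55, −2.23 and −1.79 in CEC samples, above the healthy range of −4.46 to −3.30 in all 4. The receptor Il8rb (Cxcr2) differed by −1.40 ± 0.80 and by −0.42 without DNBS sample 3. All 7 tested genes of this list had a lower mean with CEC, with 0 passing and a median of −0.92. That median was −0.42 without DNBS sample 3 and −1.57 without CEC sample 1, and Cxcl5 had the higher mean with CEC when levels were scaled to the global mean.

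The summed level of 3 neutrophil markers (S100a8, S100a9 and Ltf) was −3.81 to 2.85 in CEC samples, −0.90 to 5.64 in DNBS samples and −5.07 to −3.41 in healthy samples. Each of the 6 neutrophil markers on the panel was detected in at least 1 of the 8 samples. The same markers are the genes of these lists, and in bulk mucosa fewer cells of a type cannot be told apart from less RNA per cell. Over 7 genes of both neutrophil lists that were detected in all healthy, DNBS and CEC samples, CEC samples 1, 2, 6 and 8 lay above the highest healthy sample in 6, 5, 4 and 1 genes. DNBS samples 2, 3, 4 and 5 did so in 6, 6, 6 and 5 genes.

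Among cytokines of the early response, interleukin 1 beta (Il1b) was at −2.99, −2.59, −4.22 and −5.41 in CEC samples and −2.81, 1.5, −3.08 and −3.45 in DNBS samples. CEC sample 2 lay above and CEC sample 1 among DNBS samples 2, 4 and 5, and DNBS sample 3 alone was more than 4 units above its group mates. The difference was −1.84 ± 1.03, and −0.69 without DNBS sample 3. Il33, an alarmin of epithelial and stromal cells, was at −2.68, −3.59, −3.34 and −4.45 in CEC samples and −3.11, −1.89, −3.34 and −2.75 in DNBS samples, a difference of −0.74 ± 0.39, or −0.43 without CEC sample 8. Only DNBS sample 3 lay above all CEC samples in Il33 and only CEC samples 2 and 8 below all DNBS samples. Il1f9 (interleukin 36 gamma), not detected in CEC sample 8 and DNBS sample 4, differed by −1.33 ± 0.76 (n = 3 per group). The receptor antagonist Il1rn differed by 0.13 ± 0.38 and Il18 by 0.11 ± 0.41. The signs for Il1rn and Il18 turned with the choice of reference genes. Of 13 tested genes of the interleukin 1 family, 10 had a lower mean with CEC and 3 a higher one, with 0 passing and a median of −0.34. In this list the median changed sign under 1 of 5 other scalings and was −0.06 without DNBS sample 3.

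Tnf was at −4.11, −5.20, −5.19 and −6.51 in CEC samples and −3.91, −4.62, −4.65 and −4.57 in DNBS samples. CEC samples 2, 6 and 8 lay below all DNBS samples and CEC sample 1 above 3 of them. The difference was −0.81 ± 0.78, and −0.40 without CEC sample 8. Of 21 tested genes of the tumour necrosis factor family 12 had a higher and 9 a lower mean with CEC, with 0 passing and a median of 0.11 whose sign changed under 2 of 5 scalings. The receptors Tnfrsf1a and Tnfrsf1b, through which Tnf acts, differed by 0.20 ± 0.36 and 0.25 ± 0.45.

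In the interleukin 6 family the ligands Osm and Ctf1 differed by −1.34 ± 1.10 (CEC sample 6 not detected) and −0.67 ± 0.45, while the shared receptor subunit Il6st differed by −0.02 ± 0.28. Il6 itself was at −4.60, −6.10, −6.53 and −6.14 in CEC samples (the last filled in before deposit) and −6.15, −2.76, −4.87 and −8.40 in DNBS samples. DNBS samples spanned more than 5 units, with both the highest and the lowest of the 8 values among them. Of 10 tested members, 8 had a lower mean with CEC, with 0 passing and a median of −0.23, whose sign changed under 1 of 5 scalings.

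Nos2 was at −2.28, −0.99, −4.09 and −4.13 in CEC samples, −0.17, −1.36, −1.96 and −1.91 in DNBS samples and −5.81 to −4.17 in healthy samples. CEC samples 6 and 8 lay just above the healthy range, CEC sample 1 lay just below the DNBS samples and CEC sample 2 lay among them. The difference was −1.52 ± 0.72, with a 95% interval from −3.05 to 0.01. Without the reference genes Ywhaz and Rplp2, CEC sample 6 was at −5.14 in Nos2, inside the healthy range of −6.55 to −4.75. Hmox1, which breaks down haem, was at −1.02, −2.81, −2.64 and −3.83 in CEC samples and −1.30, −0.75, −0.96 and −2.97 in DNBS samples. In Hmox1, CEC sample 1 and DNBS sample 5 lay among the other group, and the difference was −1.08 ± 0.55, or −0.66 without CEC sample 8. The hypoxia factor Hif1a differed the other way, by 0.72 ± 0.37, and the inducible cyclooxygenase Ptgs2 by −1.16 ± 0.91, or −0.29 without DNBS sample 3. Of this list of 5 genes, 3 had a lower mean, 0 passed and the median was −1.08, or −0.29 without DNBS sample 3.

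Spp1 (osteopontin), a matrix cytokine of macrophages, was at −4.89, −8.36, −5.39 and −7.02 in CEC samples and −3.23, −3.13, −5.54 and −6.34 in DNBS samples. DNBS samples 2 and 3 were highest and CEC samples 2 and 8 lowest, while CEC samples 1 and 6 lay above DNBS samples 4 and 5. The difference was −1.85 ± 0.84, and −1.20 without CEC sample 2. The first component of complement, C1qa and C1qb, which macrophages make, differed by −0.57 ± 0.38 and −0.59 ± 0.57. Of the 8 tested genes in the list of macrophage products and complement, 6 had a lower mean with CEC, with 0 passing and a median of −0.26, or −0.09 without CEC sample 8. Complement genes as a list had 8 of 17 tested members higher and 9 lower with CEC, with 0 passing and a median of −0.07, whose sign changed under 1 of 5 scalings.

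CC chemokines had a lower mean with CEC in 13 of 15 tested genes, with 0 passing and a median of −0.53. That median was −0.10 without CEC sample 1, and with quantile normalization it was −0.09, with 8 of 12 tested genes lower. The macrophage chemokine Ccl3 was at −3.60, −6.86, −6.93 and −8.31 in CEC samples and −4.18, −0.83, −4.33 and −8.66 in DNBS samples. The highest and the lowest value both belonged to DNBS samples, so the groups overlapped throughout, and the difference of −1.92 ± 1.52 was −0.70 without DNBS sample 3. Ccl4 differed by −1.24 ± 1.09, or −0.32 without DNBS sample 3. The monocyte chemokine Ccl2 differed by −0.69 ± 0.72, or −0.02 without CEC sample 8. The eosinophil chemokines Ccl11 and Ccl24 differed by −0.55 ± 0.59 and −0.53 ± 0.46, or by −0.28 without CEC sample 8 and −0.06 without CEC sample 1. In Ccl24 the sign turned with quantile normalization. Both exceptions, Ccl20 (1.05 ± 0.71) and Ccl28 (0.49 ± 0.38), are chemokines of epithelium. Ccl20 was at −3.74, −4.67, −4.59 and −5.77 in CEC samples and −4.91, −7.32, −4.98 and −5.76 in DNBS samples. Here DNBS sample 3 was the lowest of the 8, and without it the difference was 0.53.

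All 16 tested chemokine receptors had a lower mean with CEC, from −1.26 (Ccr3, of eosinophils) to −0.004 (Cxcr3, of T cells), with 0 passing and a median of −0.51. With levels scaled to the global mean 14 of the 16 were lower, and with quantile normalization 9 of the 12 that could be tested. Over the single samples left out, the median of the list stayed between −0.75 and −0.37. Ccr9, a receptor of lymphocytes that home to the gut, was at −5.03, −7.38, −5.68 and −5.97 in CEC samples and −4.16, −5.22, −4.61 and −5.19 in DNBS samples, a difference of −1.22 ± 0.70. In Ccr9, CEC sample 1 lay within the DNBS range and the other 3 CEC samples below it. The monocyte receptor Ccr2 differed by −0.65 ± 0.58, with CEC sample 1 at −5.21 against −2.99 to −2.07 in the other 7 samples, and by 0.003 without CEC sample 1. The 4 tested monocyte and macrophage markers (Itgam, Ccr2, Cd14 and Cx3cr1) had a lower mean with CEC, from −1.04 to −0.03. Of these markers, Ccr2 and Cx3cr1 also belong to the receptor list and were already counted there. The sign of Cx3cr1 turned under the global mean and under quantile normalization. The summed level of the 4 markers was −1.16 to 0.14 in CEC samples, −0.81 to 0.71 in DNBS samples and −1.32 to −0.39 in healthy samples. Its part in the receptor values was not tested.

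The T cell markers lay the other way, though Ccr9 of lymphocytes, given above, had a lower mean with CEC. All 4 T cell markers on the panel, Cd4, Cd28, Ctla4 and Icos, had a higher mean with CEC, by 0.57 ± 0.60, 1.16 ± 0.64, 0.85 ± 0.43 and 0.31 ± 0.60, with Cd4 at 0.10 without CEC sample 2. Cd28, a costimulatory receptor, was at −8.15, −5.39, −5.96 and −6.50 in CEC samples and −6.97, −8.98, −5.99 and −8.70 in DNBS samples. CEC sample 1 lay with the low DNBS samples 3 and 5, and DNBS sample 4 lay among the high CEC samples. Ctla4, an inhibitory receptor of T cells, was at −6.41, −4.59, −6.16 and −6.67 in CEC samples and −7.08, −6.50, −6.71 and −6.92 in DNBS samples. CEC sample 2 stood above the others, and the difference was 0.39 without it. Of 8 tested genes of the T cell and costimulation list, 6 had a higher mean and 2 a lower one, the lowest at −0.69. Of this list 0 passed, and the median was 0.25, or 0.02 without CEC sample 2. The summed level of 3 T cell markers (Cd4, Cd28 and Ctla4) was −5.02 to −2.83 in CEC samples and −5.63 to −3.57 in DNBS samples. The sum is made of genes named here and is no separate reading, and its part in the list's other values was not tested.

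In the interferon gamma axis, the chemokine Cxcl9 was at −4.56, −0.58, −4.64 and −4.60 in CEC samples and between −5.53 and −3.12 in DNBS samples. CEC sample 2 stood alone, and the difference of 0.55 ± 0.80 was −0.46 without it. Cxcl10 was also highest in CEC sample 2, at −2.25, against −5.74 to −4.44 in the other CEC samples and −4.80 to −2.90 in DNBS samples. Of the 9 tested genes of this axis, 2 had a higher and 7 a lower mean, with 0 passing and a median of −0.10, whose sign changed under 1 of 5 scalings.

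Some genes stood at the detection limit. In 5 of 516 genes that were detected in at least 1 of the 8 samples (percent called 0.969) detection differed, with at least 3 of 4 samples detected in either group and at most 1 in the other. Ifng, the main T cell and natural killer cell interferon, was detected in CEC samples 2, 6 and 8, at Ct values of 25.16, 27.5 and 27.53, and in DNBS sample 5, at 26.58. The undetected samples were at 28.17 to 29.15, within a few cycles of the limit of 28. The nicotinic receptor subunit Chrna7 and the inhibin subunit Inha were also detected in 3 CEC samples and 1 DNBS sample, of which CEC sample 2 in Chrna7 and CEC sample 6 in Inha held filled-in values. Camp, the neutrophil antimicrobial peptide cathelicidin, was detected in CEC sample 1 (23.81) and DNBS samples 3, 4 and 5 (23.12, 27.1 and 25.43), with the other samples at 28.61 to 30.88. Il22, an epithelial repair cytokine of lymphocytes that the panel lists as Il22;Iltifb, was detected in CEC sample 2 (27.73) and in DNBS samples 3, 4 and 5 (27.75, 25.86 and 27.93). In Il22, CEC samples 1 and 6 gave no amplification, which cannot be told from a failed well. Il17a was detected in 1 CEC sample and 2 DNBS samples. Each of the 5 had a two-sided p of 0.486 in Fisher's exact test, and the lowest adjusted p was 1.

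Of 14 tested epithelial surface and repair genes 9 had a higher mean with CEC and 5 a lower one, with 0 passing and a median of 0.17, and the split was 7 to 7 without the reference genes Ywhaz and Rplp2. In 3 of the 14 the 95% interval lay inside 1 log2 unit to either side. The growth factor Ereg had the largest difference of the list, −0.80 ± 0.67. The tight junction gene F11r differed by 0.58 ± 0.37, the mucin Muc4 by 0.56 ± 0.42, the epidermal growth factor receptor Egfr by 0.29 ± 0.33 and the chloride channel Cftr by −0.02 ± 0.38. Anxa1, an anti-inflammatory annexin, was at 2.5, 2.93, 1.53 and 1.35 in CEC samples and 1.12, 2.04, 1.79 and 1.21 in DNBS samples. CEC samples 1 and 2 were the highest of the 8 and CEC samples 6 and 8 lay within the DNBS range, a difference of 0.54 ± 0.38. The acute phase and antimicrobial genes had 4 tested members higher and 4 lower, with a median of −0.08, whose sign changed under 1 of 5 scalings. Among them Saa3 was at 3.21, 0.02, −1.35 and −3.62 in CEC samples and 0.70 to 2.20 in DNBS samples. CEC sample 1 lay above the DNBS range and the other 3 CEC samples below it.

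**Figure D4:**
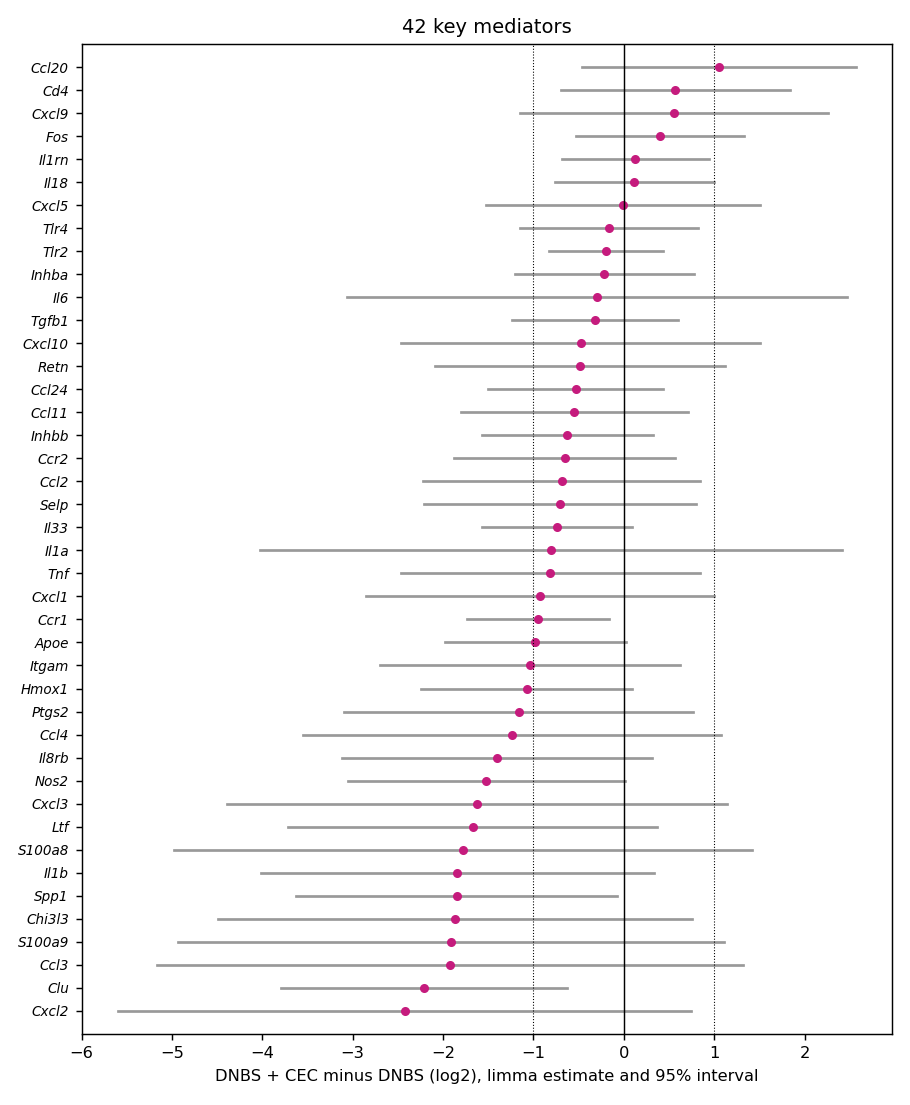
Difference between CEC and DNBS samples (log2, x axis) for 42 key mediators, with the limma estimate as a point and its 95% interval as a line; dotted lines mark 1 log2 unit to either side. The intervals are not adjusted for the number of genes tested. Those of Clu, Spp1 and Ccr1 lie below 0, but none of the 42 genes passed. Exact permutation of the 8 samples gave p = 0.0857 for Clu, 0.171 for Spp1 and 0.0286 for Ccr1. Only 3 intervals lie between the dotted lines.

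Lipid mediator genes had a lower mean with CEC in 7 of 9 tested members, with 0 passing and a median of −0.59, or −0.29 without DNBS sample 3 and −0.24 with quantile normalization. The largest difference was that of Alox5ap, which activates 5-lipoxygenase, at −1.22 ± 0.67. In the selectin and integrin list all 4 tested members had a lower mean (3 of 4 with the global mean or quantile normalization), with 0 passing and a median of −0.60, or −0.08 without DNBS sample 3. Itgam, an integrin of neutrophils and macrophages, was at −0.53, −3.98, −2.33 and −4.28 in CEC samples and −1.17, −0.68, −2.41 and −2.71 in DNBS samples. CEC sample 1 was the highest of the 8 and CEC samples 2 and 8 the lowest.

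The Toll-like receptors Tlr2 and Tlr4 differed by −0.20 ± 0.30 and −0.16 ± 0.46, and in the Toll-like receptor list 10 of 22 tested genes had a higher mean and 12 a lower one, with 0 passing and a median of −0.05. All 7 tested MAP kinase genes, with Fos and Jun, had a higher mean, by at most 0.40 ± 0.44 (Fos), with a median of 0.09. Without Ywhaz and Rplp2 in the reference, or with Gapdh alone, 3 of the 7 were higher and 4 lower. In both lists the sign of the median changed with the scaling, under 1 and 2 of 5. The JAK and STAT genes had a median of −0.16, the inflammasome and cytosolic sensors −0.02, the haematopoietic growth factors −0.06 and the regulatory cytokines −0.001, with 0 passing in each, and except for the JAK and STAT genes these signs changed under 2 of 5 scalings. The JAK and STAT median was 0.04 without DNBS sample 2. The bone morphogenetic proteins gave 0.21 over 10 tested genes and the activin and TGF-beta list −0.22 over 11, also with 0 passing, and the latter sign changed under 1 of 5 scalings. The bone morphogenetic protein median was −0.22 without CEC sample 6. Tgfb1 differed by −0.32 ± 0.43, and Il10 was detected in 0 of the 8 samples. The type 2 list gave −0.14 as the median of 8 tested genes, the interleukin 17 and 22 list 0.03 over 5 and the adipocyte list −0.24 over 7. Without DNBS sample 4 the type 2 median was 0.19 and the adipocyte median 0.05. In the interleukin 17 and 22 list the sign changed under 3 of 5 scalings. The 5 adipocyte markers were all detected, and the summed level of 4 of them was −0.68 to 1.87 in CEC samples and 1.21 to 2.43 in DNBS samples; the part of fat tissue in the adipocyte values was not tested.

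**Figure D5:**
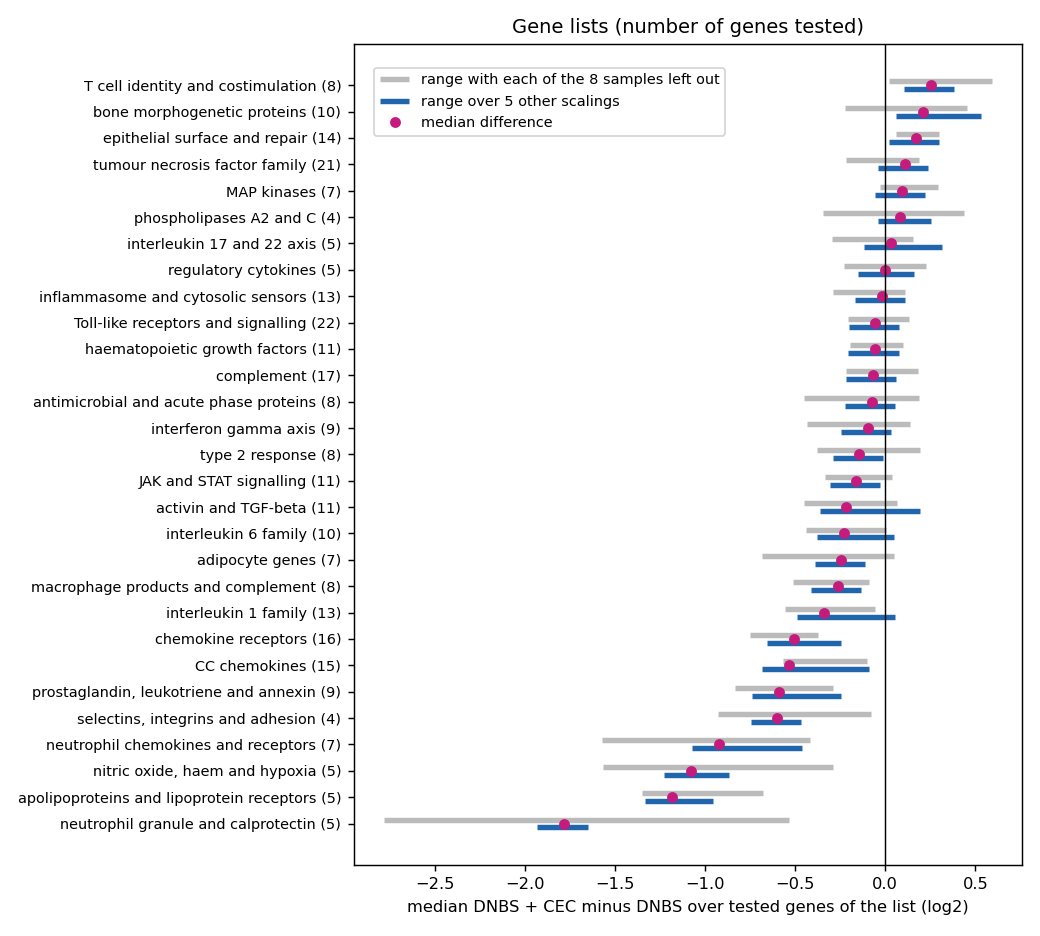
Median difference between CEC and DNBS samples (log2, x axis) over the tested genes of each list (y axis, number of genes in brackets), with the range over the 8 fits that each leave out 1 sample (grey) and over 5 other scalings (blue). The neutrophil granule list has the lowest median, −1.78, and a grey range from −2.78 to −0.54.

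For 118 of the 474 genes (24.9%) the 95% interval of the difference lay inside 1 log2 unit to either side, so a difference above 2-fold lay outside it. For 376 genes (79.3%) it lay inside 2 units, which is 4-fold. The narrowest intervals belonged to the splicing cofactor Dnajc8 (−0.41 to 0.75), the interleukin 13 receptor subunit Il13ra1 (−0.33 to 0.85), the scaffold Sdcbp (−0.43 to 0.75), the nuclear pore gene Nup85 (−0.20 to 0.98), Abcf1 (−0.50 to 0.69), Il6st (−0.62 to 0.58), the interleukin 3 receptor Il3ra (−0.65 to 0.54) and H47 (−0.46 to 0.75). The neutrophil and chemokine lists had no such gene: 0 of 5 granule genes, 0 of 7 neutrophil chemokines and receptors, 0 of 15 CC chemokines and 0 of 16 chemokine receptors had an interval inside 1 unit. The widest spread within CEC samples was that of S100a8, S100a9, Cxcl2, Chi3l3 and Saa3, and within DNBS samples that of S100a8, S100a9, Cxcl2, Il1a and Ccl3. Over the 441 genes detected in all 8 samples, the median SD was 0.69 in CEC and 0.57 in DNBS samples. The count of narrow intervals was 69 without CEC sample 8 and 68 without either DNBS sample 2 or DNBS sample 4.

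The mean reference Ct enters the level of every gene of a sample. The reference gene Ywhaz had a Ct of 25.34, 21.59, 25.28 and 18.61 in CEC samples and 25.41, 18.80, 24.50 and 18.59 in DNBS samples. The samples with a late Ywhaz had a median gene level above that of their group mates, by 0.48 in CEC sample 6, 0.31 in DNBS sample 2 and 0.43 in DNBS sample 4, except CEC sample 1 at −0.01. The samples with an early Ywhaz lay below, at −0.39 in CEC sample 8, −0.35 in DNBS sample 3 and −0.55 in DNBS sample 5. With Ywhaz and Rplp2 left out of the reference these offsets lay between −0.34 and 0.32, and the median difference between CEC and DNBS moved from −0.09 to −0.24. The offset of CEC sample 1 went from −0.01 to −0.22 and that of CEC sample 2 from −0.05 to −0.09. The offsets of the other samples became smaller in size, and the cause of the offsets was not tested. Some places of single samples changed as well. In S100a8, CEC sample 6 was then at −4.48, just inside the healthy range, whose highest sample was at −4.47. In Ccr1, CEC sample 1 was at −4.61, just below the lowest healthy samples at −4.57.

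Without these 2 reference genes 0 genes passed as well (limma with Benjamini-Hochberg adjustment, lowest adjusted p = 0.844). An unadjusted p under 0.05 was found for 18. The groups were then separated in 11 of 474 genes (percent called 2.32), and in all 11 the CEC samples were lower. They were Ccr1 (−1.10 ± 0.33), Apoe (−1.13 ± 0.43), S1pr1, a receptor that lets lymphocytes leave lymphoid tissue (−1.25 ± 0.52), Olr1 (−2.05 ± 0.84, CEC sample 8 not detected), Ccr9 (−1.37 ± 0.63), Il1f9 (−1.64 ± 0.80, n = 3 per group), Apoa1 (−1.33 ± 0.70), Cxcr6 (−0.96 ± 0.57), the nuclear alarmin Hmgb1 (−0.37 ± 0.22), the lipid-presenting molecule Cd1d1 (−0.86 ± 0.52) and the antioxidant enzyme Prdx5 (−0.46 ± 0.30). The 2.32 percent separated is also no excess over the probability of 0.0286 with labels exchanged at random (exact permutation). That probability counts both directions and holds for a gene read in all 8 samples, which Olr1 and Il1f9 were not. As genes of a sample share the reference, it cannot tell whether 11 genes in the same direction are an excess. All 11 differences stand beside the median of −0.24 over all genes in that fit. Of these names, those that are neither key mediators nor among the 12 leading genes were picked with their values known.

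The healthy group places these values. Of 457 genes tested between DNBS and healthy samples 5 passed (percent called 1.09): Nos2, Ltf, Chi3l3, S100a9 and S100a8. In CEC samples these genes were above healthy by 2.31 ± 0.72, 2.65 ± 0.95, 3.47 ± 1.22, 4.32 ± 1.41 and 4.71 ± 1.49, and none passed (limma with Benjamini-Hochberg adjustment, adjusted p from 0.336 to 0.467). Against DNBS the same genes were at −1.52 ± 0.72, −1.67 ± 0.96, −1.87 ± 1.23, −1.91 ± 1.43 and −1.78 ± 1.51. These comparisons share samples, and passing against healthy in the DNBS group and not in the CEC group does not show that the groups differ, as the direct comparison did not pass. Of 458 genes tested between CEC and healthy samples 0 passed (percent called 0), with a lowest adjusted p of 0.226 for Hif1a, which was at 0.15, 0.99, −0.21 and −0.87 in CEC samples and −1.85 to −1.37 in healthy samples. All 4 CEC samples lay above all healthy samples in Hif1a, by 1.62 ± 0.37 on average, and DNBS samples were at −1.01 to −0.16. Between CEC and healthy samples 25 genes had an unadjusted p under 0.05.

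Against the samples given DNBS and Nissle, 0 of 471 genes passed (percent called 0; limma with Benjamini-Hochberg adjustment, lowest adjusted p = 0.565). An unadjusted p under 0.05 was found for 21. The lowest p was that of Ccl24, at −8.53, −7.23, −6.05 and −6.64 in CEC samples. Against DNBS samples Ccl24 was at −0.53 ± 0.46 and against Nissle samples at −1.80 ± 0.46. Spp1 followed at −2.97 ± 0.84 against Nissle samples.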

How the data were processed

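The authors deposited raw Ct values (unit other), 1 per assay and sample, with no normalization per the file headers, whose first line calls the table a truncated example. Per the labels' protocols, RNA was isolated with a mirVana kit and read on a TaqMan OpenArray panel; thresholding and amplification filters are not given in the sources used here. In the 8 samples, 47 values (30 in CEC, 17 in DNBS samples) matched the mean of their 3 group mates to within 2e-06 and were read as filled in; 13 of them entered tested genes. Another 281 values had at most 4 decimals, as the digit pair 40 is missing from the table (Cd40 is listed as Cd). Both kinds were kept.

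Ct values were averaged over the assays detected in most samples. Levels were the mean Ct of 13 reference genes (19 assays) minus the gene's Ct, with a Ct above 28 as not detected. Some reference genes and some other genes are not reported here by name. The 16 endogenous control symbols were not tested. The fit used R 4.3.3 and limma 3.58.1 (functions lmFit, eBayes), with all 16 samples as 4 groups (12 residual degrees of freedom), Benjamini-Hochberg adjustment and a threshold of 0.05. The script was tested on simulated data. Detection was compared over 516 genes by Fisher's exact test, two-sided. The alternatives were other references, scalings, detection limits, assay rules and left-out values or samples.

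The samples, gene lists and tests were chosen with earlier results of these data known, and 5 lists were added after the panel's gene names were read (antimicrobial and acute phase, complement, inflammasome, epithelial surface and repair, JAK and STAT). Named genes were the 12 with the lowest p, those whose groups did not overlap, all detection differences, 46 key mediators (45 on the panel), the 2 with the lowest p of each list, the 5 with the largest SD in each group and the 8 with the narrowest interval. Further list members, named with their list, were chosen after their values were seen. Markers of stroma and muscle were not on the panel under the names listed.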

Additional observations from a re-analysis of the deposited data

Results flagged for a closer look

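Of 173 groups of 4 samples examined for the named genes, 12 held a sample whose gap to its nearest group mate was above Dixon's 95% critical value as a share of the group's range. Chance gives about 1 in 20 groups. Of these, 5 lay in DNBS sample 3, each time as the highest of its group: the oxidised lipoprotein receptor Olr1 at −3.39, the neutrophil chemokines Cxcl1 at −1.53 and Cxcl3 at 0.20, Il1b at 1.5 and oncostatin M (Osm) at −1.86. The only other DNBS sample was sample 2, which was highest in Tnf at −3.91. Among CEC samples, sample 2 was highest in the interferon-induced chemokine Cxcl9 at −0.58, and sample 1 in the activin subunit Inhbb at −5.28. CEC sample 6 was highest in Bmp2 at −1.81, in the Toll-like receptor partner Ly86 at −2.93 and in Il6st at −0.72. CEC sample 8 was lowest in Cd180, a B cell surface protein, at −5.57. The 12 of 173 flagged are not far above the 1 in 20 that chance gives. Some of the named genes were chosen for a large spread or a low p in these same data.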

How the results depend on the processing

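The count of genes passing between CEC and DNBS samples was 0 under all 14 other settings and without each of the 8 samples, and so was the count between CEC and Nissle samples under the settings run for it, which include leaving out each Nissle sample, added after seeing the data. The count of separated genes, 3, was 11 without Ywhaz and Rplp2 in the reference and 9 with Gapdh alone. It was 8 with the global mean, 5 with shortened values left out and 4 to 23 with single samples left out. Leaving out a sample makes separation easier, as 3 samples then stand against 4. The count of intervals inside 1 log2 unit, 118, was 46 with only the 8 samples in the fit and 68 to 104 with single samples left out. Detection differences numbered 3 in place of 5 without filled-in values. The sign turned in Il1rn (−0.0218) and Il18 (−0.0338) without Ywhaz and Rplp2, in Il18 (−0.00899) with Gapdh alone, in Cxcl5 (0.12) with the global mean, in Ccl24 (0.0270) with quantile normalization, and in Cxcl5 (0.73) and Tgfb1 (0.13) with shortened values left out. With single samples left out, 12 of 51 genes turned sign at least once: Cxcl5 ranged from −0.60 to 0.73, Il1a from −1.52 to 0.48, Il1rn from −0.0782 to 0.40, Il18 from −0.15 to 0.39, Il6 from −1.25 to 0.63, Ccr2 from −1.04 to 0.00347, Cxcl9 from −0.46 to 0.90, Tgfb1 from −0.60 to 0.0563, Inhba from −0.50 to 0.35, Retn from −0.77 to 0.0350, Tlr2 from −0.38 to 0.0279 and Tlr4 from −0.67 to 0.15. The causes were not tested. The labels pair no CEC sample with a DNBS sample, so no paired analysis was made. With 4 samples per group, the exact permutation test of a single gene cannot give a two-sided p below 0.0286, and the number of samples and the spread of the neutrophil genes limit what can be told apart here.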
